A study of Mus musculus with 6 samples.

Results

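Hox genes encode the homeodomain transcription factors that give cells their position along the body axis. The 39 protein-coding Hox genes of the mouse, chosen by symbol (Hoxa, Hoxb, Hoxc or Hoxd followed by a number) from GENCODE M21 on mm10, were scored for open chromatin in nuclei of the newborn heart. They are 39 of 21938 protein-coding genes outside the mitochondrial chromosome, and they lie in 4 clusters: 11 genes in HoxA, 10 in HoxB, 9 in HoxC and 9 in HoxD.

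Within a cluster the genes stand in the order of their paralog number, and in the embryo low numbers (anterior genes) come on earlier and nearer the head than high numbers (posterior genes). Hox proteins bind DNA together with TALE homeodomain partners of the Pbx and Meis families. Retinoic acid activates anterior Hox genes in the second heart field, Polycomb complexes keep Hox clusters silent in cells that do not use them, and Trithorax group methyltransferases keep used genes active. CTCF, an insulator protein, has binding sites between Hox genes and can separate a silent from an active stretch of a cluster.

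Omni-ATAC-Seq, which marks open DNA by transposase insertion, was performed on 50000 nuclei per library from whole hearts at postnatal day 1 (P1), all purified over a 2.2 M sucrose cushion, with 2 biological replicates in each of 3 groups. Input was the purified nuclei of WT hearts taken from the cushion without capture, at a sucrose density that the study's methods use to collect mainly cardiomyocyte nuclei. Myc was nuclei captured with an anti-Myc antibody by magnet-assisted nuclei immunoprecipitation (MAN-IP) from hearts carrying Nkx2-5 Cre/+ and the R26RSun1-Myc-Egfp/+ reporter, in which Cre under Nkx2-5 tags the nuclear envelope of the Nkx2-5 lineage, a lineage that holds smooth muscle and endothelial cells beside cardiomyocytes. PCM1 was nuclei of hearts labelled WT, captured by MAN-IP with an antibody to PCM1, a centrosome protein that coats cardiomyocyte nuclei. The data were 1 list of peaks per library, so each value is of a called peak, and a gene without a peak had none detectable at the depth of that library.

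The lists held 75336 to 131500 peaks. The genome-wide background under the peaks, recovered from fold and p, was 3.96 in Input replicate 1 and 0.903 to 1.44 in the other libraries, which was taken as a measure of depth on the assumption that it is the lowest background MACS2 allows in a library. On that estimate Input replicate 1 was 4.38 times as deep as the shallowest and the Myc libraries 1.60 and 1.59 times. Read totals were not used here. At that background the lowest pileup called was 2.78 times the background in Input replicate 1, 4.16 and 4.18 times in Myc, 5.12 and 5.54 times in PCM1 and 5.86 times in Input replicate 2. Of 12 cardiomyocyte markers, 10 to 12 had a peak at a transcription start site (TSS) in each library. The share of all protein-coding genes was 63.3% to 69.3%. Endothelial markers had one in 10 of 10 cases in every library, mural markers in 9 to 10 and fibroblast markers in 6 to 10. Epicardial markers had one in 7 to 9 of 10, neural crest markers in 2 to 5 and immune markers in 1 to 3. These counts do not separate cardiomyocytes from endothelial or mural cells.

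Most Hox genes carried some open chromatin in the Input and Myc libraries, and 18 of 39 did in each PCM1 library. Little of it was strong. A peak over the gene body or within 2 kb of it was present at 33 of 39 Hox genes in Input replicate 1, where 78.8% of all protein-coding genes had one. Input replicate 2 had 23, against 73.4% of all genes. Myc replicate 1 had 31, against 77.2%, and Myc replicate 2 had 33, against 77.1%. Both PCM1 libraries had 18, against 73.9% of all genes in replicate 1 and 73.7% in replicate 2. As shares, the Hox genes stood at 84.6%, 59.0%, 79.5%, 84.6%, 46.2% and 46.2% in that order, above the share of all genes in Input replicate 1 and both Myc libraries and below it in the other three. With each list limited to its strongest 75336 peaks, the share was below that of all genes in all 6 libraries: 59.0% against 73.7% in Input replicate 1, 69.2% against 73.8% in Myc replicate 1 and 59.0% against 73.7% in Myc replicate 2. Hox genes are short: their windows had a median of 7.49 kb, against 21.4 kb for all genes, and the windows of neighbours overlap, so that the 18 genes of PCM1 replicate 1 shared 21 distinct peaks and the 33 of Input replicate 1 shared 48.

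At start sites, where each annotated start has a window of the same width, fewer Hox genes were open. A gene with several starts has several windows. The Hox genes had 1 to 5 annotated starts each, and the number over all genes is not given here. A peak within 1 kb of an annotated TSS was found at 20 Hox genes in Input replicate 1, against 69.3% of all genes. The count was 10 in Input replicate 2, against 63.4%, and 19 and 22 in Myc replicates 1 and 2, against 67.2% and 66.9%. PCM1 replicate 1 had 6, against 63.8%, and PCM1 replicate 2 had 9, against 63.3%. Each of these 6 counts is a lower share (15.4% to 56.4%) than that of all genes, with a mean difference over libraries of −28.9 percentage points. When every list was limited to its strongest 75336 peaks, the counts at start sites were 11 and 10 for Input, 12 and 9 for Myc and 6 and 7 for PCM1, against 62.5% to 64.1% of all genes.

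**Figure D1:**
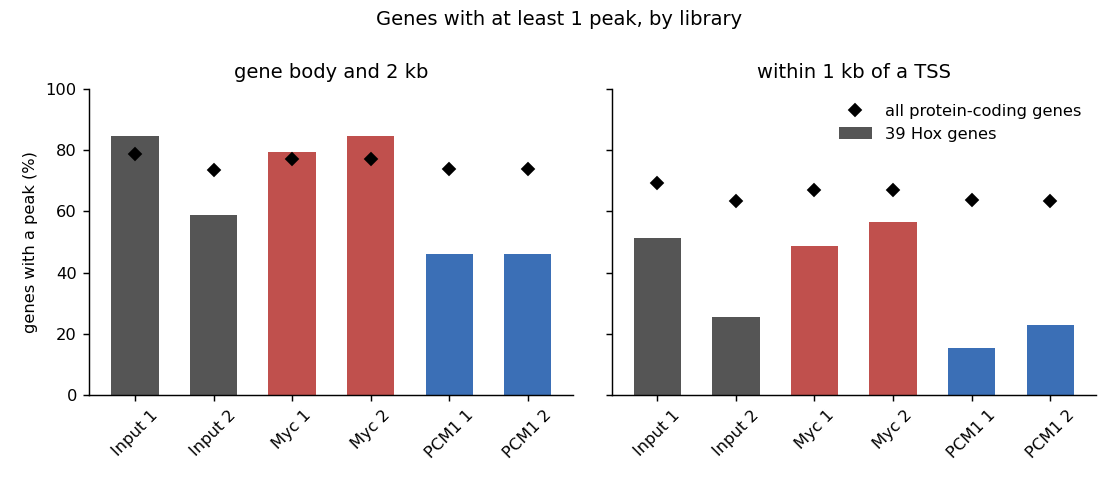
Share of genes with at least 1 peak (y axis, percent) in each of the 6 libraries (x axis), over the gene body and 2 kb (left) and within 1 kb of a TSS (right). Bars are the 39 Hox genes (grey Input, red Myc, blue PCM1) and diamonds all 21938 protein-coding genes; at start sites every bar lies below its diamond, from 6 genes in PCM1 replicate 1 to 22 in Myc replicate 2.

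Of the 39 genes, 12 had a peak over the gene window in all 6 libraries, against 70.1% of all genes, among them Hoxa3, Hoxa7, Hoxa9, Hoxb2, Hoxc5, Hoxc6, Hoxc13, Hoxd3 and Hoxd4. At a TSS 3 did (7.69%, against 59.7% of all genes), Hoxa7 and Hoxc13 among them. The Hoxa7 peak is at the outermost of its 4 annotated starts. No library had a peak over the Hoxa7 promoter that RefSeq lists (chr6:52218524-52218823). Hoxc13 acts in hair and nail. Hoxb1, Hoxb13 and Hoxc4 had no peak in any library (7.69% of the Hox genes, against 19.3% of all genes). A further 24 genes lacked a peak in at least 1 library: Hoxa2, Hoxa4, Hoxa5, Hoxa6, Hoxa11, Hoxa13, Hoxb3, Hoxb4, Hoxb5, Hoxb6, Hoxb7, Hoxb8, Hoxb9, Hoxc8, Hoxc9, Hoxc10, Hoxc11, Hoxc12, Hoxd1, Hoxd8, Hoxd9, Hoxd10, Hoxd11 and Hoxd12. No TSS peak was called in any library for 13 of the 39 (33.3%, against 28.7% of all genes).

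The strength of each gene's best peak was expressed as its rank percentile, the position of its −log10 q in its own library's list, from near 0 for the weakest peak to 100 for the strongest, with 0 for a gene without a peak. The median over the 39 Hox genes was 46.4 and 12.9 in the Input libraries, 45.9 and 46.2 in the Myc libraries, and 0 in both PCM1 libraries. Over all protein-coding genes the median was 78.3 to 88.2. The highest rank of any Hox gene in a library lay between 64.1 and 86.7. Thus 0 of the 39 ranked over 90 in any library, while 7108 to 10167 of the 21938 genes did. When peaks within 1 kb of a TSS alone were ranked, the mean of the 6 medians moved from 25.2 to 2.01.

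**Figure D2:**
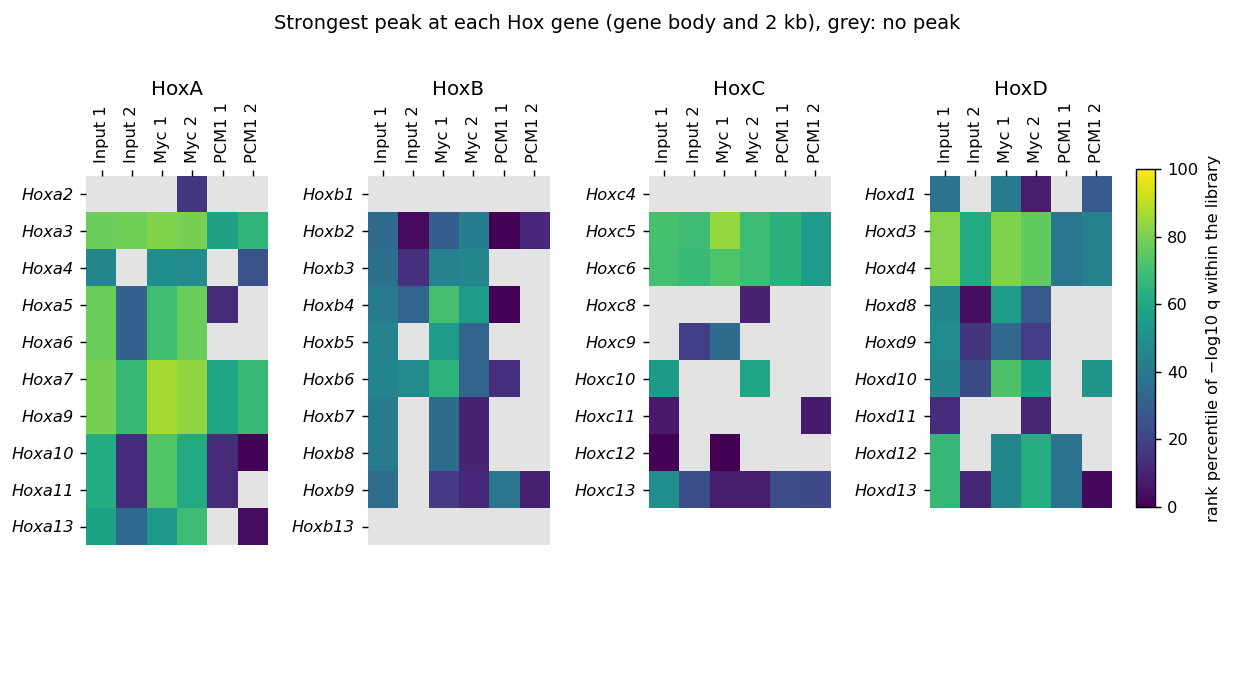
Rank percentile of the strongest peak over each Hox gene and 2 kb to either side (colour, 0 to 100), for 38 of the 39 genes in rows by cluster and paralog number and the 6 libraries in columns. Grey cells are genes without a peak; Hoxb1, Hoxb13 and Hoxc4 are grey throughout, and the stretch Hoxa7 to Hoxa9, Hoxc5 to Hoxc6 and Hoxd3 to Hoxd4 is coloured in all 6 libraries.

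In HoxA, Hoxa7 had the highest mean rank, 73.8 ± 11.04 (SD, n = 6 libraries), tied with Hoxa9 because both windows hold the same strongest peak. Hoxa7 encodes a central Hox protein of the thoracic axis. Its ranks were 79.5 and 67.0 for Input, 86.7 and 83.4 for Myc and 58.6 and 67.3 for PCM1, so that both Myc libraries were above the other 4. Hoxa2, the hindbrain and second-arch selector gene, was the lowest of the cluster: it ranked at 15.8 in Myc replicate 2 and had no peak in the other 5 libraries. The mean rank over the 11 HoxA genes was 46.3 over libraries, from 23.0 in PCM1 replicate 1 to 66.5 in Myc replicate 2.

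HoxB had a mean rank of 18.1. Its highest gene was Hoxb6, at 34.0 ± 23.8 (SD, n = 6), with 44.6 and 48.3 in Input, 64.7 and 32.7 in Myc, 13.7 in PCM1 replicate 1 and no peak in PCM1 replicate 2. None of the Hoxb6 peaks lay within 1 kb of a Hoxb6 TSS. Hoxb1, a retinoic acid target in the hindbrain and second heart field, had no peak in the 6 libraries, and Hoxb13, a gene of the tail and prostate that lies apart from the rest of its cluster, had none either.

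The HoxC mean rank was 21.1, and its extremes stood next to each other. Hoxc5 was the highest, at 68.8 ± 9.47 (SD, n = 6), with 71.0 and 68.8 for Input, 84.4 and 68.9 for Myc and 64.1 and 55.4 for PCM1. The annotated Hoxc5 locus spans 49987 bp and holds Hoxc6, Hoxc8 and Hoxc9 inside it, so these peaks are not those of its own start, where the mean rank was 11.2. Hoxc4, the next gene of the cluster and a gene of the cervical axis, had no peak over its 17919 bp in any library.

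HoxD had a mean rank of 34.1. Hoxd3 was highest, at 63.7 ± 18.8 (SD, n = 6), tied with Hoxd4, whose locus it contains. Its ranks were 81.4 and 61.3 for Input, 80.7 and 75.8 for Myc and 39.1 and 43.8 for PCM1, the PCM1 libraries being below the other 4. Hoxd11, which patterns forearm and kidney, was the lowest, at 3.92, with 13.3 in Input replicate 1, 10.3 in Myc replicate 2 and no peak in the other 4 libraries.

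By position within the cluster, posterior genes had the lowest mean rank. Anterior genes (paralogs 1 to 3, 8 genes) had a mean rank of 32.9 ± 11.5 (SD over 6 libraries), central genes (4 to 8, 15 genes) 35.3 ± 17.3 and posterior genes (9 to 13, 16 genes) 24.6 ± 13.4. Within a library, the central mean was 10.7 ± 6.31 above the posterior mean (SD over 6 libraries) and the anterior mean 8.33 ± 5.199 above it, each in 6 of 6 libraries, while anterior minus central was −2.42 ± 7.04. These are descriptions with no test. At start sites alone, anterior and central genes stood 0.682 and 4.70 above posterior genes in mean rank. The share with a TSS peak ran the other way, with means over libraries of 33.3% (anterior), 36.7% (central) and 38.5% (posterior). Spearman's rho of rank against paralog number over the 39 genes was −0.214 to −0.015 in the 6 libraries, given as a description, since neighbouring genes share peaks. Rank and gene length had a rho of 0.248 to 0.498.

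Taken by interval, from 2 kb before the first to 2 kb after the last gene, HoxA covered 109 kb (chr6:52153590-52262880, mm10), HoxB 178 kb (chr11:96192316-96370256), HoxC 120 kb (chr15:102919103-103038852) and HoxD 101 kb (chr2:74666310-74767142). HoxA held 16 and 9 peaks for Input, 11 and 15 for Myc and 10 and 9 for PCM1, a mean of 10.7 ± 2.82 peaks per 100 kb (SD, n = 6). HoxB had 6.37 ± 2.60, HoxC 6.54 ± 1.34 and HoxD 7.27 ± 3.85 per 100 kb. The HoxB interval includes the long stretch from the end of Hoxb13 (chr11:96197447) to the start of Hoxb9 (chr11:96271457), which holds no other Hox gene. This stretch lowers the weight of the genes in the HoxB density, and a density without it was not computed. HoxA was denser than HoxB by 4.31 ± 1.80, than HoxC by 4.13 ± 1.84 and than HoxD by 3.40 ± 2.33 peaks per 100 kb, in 6 of 6 libraries each. An exact permutation test (two-sided), in which the signs of the 6 library differences were flipped in every way, gave p = 0.03125 for each of these differences, the smallest value that 6 libraries allow, and an adjusted p of 0.0625 over the 6 pairs of clusters. The other 3 pairs had adjusted p of 0.516 to 0.781 by the same exact test. No groups are compared by it.

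In HoxD the PCM1 libraries had the fewest peaks: 11 and 6 for Input, 10 and 11 for Myc, and 2 and 4 for PCM1. Both PCM1 libraries were below the other 4, as was their number of distinct Hox peaks (21 and 22, against 26 to 48). Beside the clusters, the 50 kb to either side held 2.83 ± 0.753 peaks per 100 kb at HoxA, 4.67 ± 1.21 at HoxB, 2.50 ± 1.05 at HoxC and 3 ± 1.67 at HoxD, each a lower mean than that of its cluster. Within single libraries, HoxB was below its flanks in both PCM1 libraries (4.50 against 7 in replicate 1, 3.37 against 4 in replicate 2). HoxD was below its flanks in PCM1 replicate 1 (1.98 against 2). In all other cases the cluster was denser than its flanks. The genome as a whole held 2.76 to 4.82 peaks per 100 kb. At HoxB the mean difference from the flanks was gone with an equal number of peaks per library (−0.0248 per 100 kb).

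**Figure D3:**
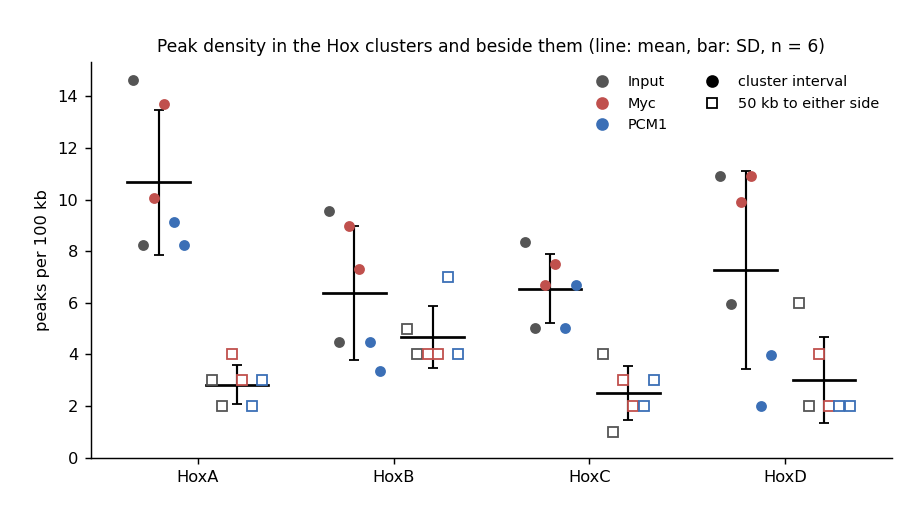
Peaks per 100 kb (y axis) in each Hox cluster interval (filled circles) and in the 50 kb to either side (open squares), 1 point per library, coloured by group, with the mean as a line and the SD as a bar (n = 6). HoxA is the densest, at 10.7 ± 2.82, and the 2 PCM1 points of HoxD, from 2 and 4 peaks, lie below its other 4 points.

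Merged over the 6 libraries, the peaks of the 4 clusters formed 74 regions. The summit lay within 1 kb of a Hox TSS in 31 and between start sites in 43. By annotation, 25 summits were intergenic, 25 in introns, 14 in coding exons, 9 in UTRs and 1 in another exon. A peak in all 6 libraries was present at 11 of the 74 regions (14.9%, against 28.8% of all 169881 merged regions). These were 2 of the 31 regions at a Hox TSS and 9 of the 43 between start sites. Of the 10 regions with a mean rank over 50, 8 lay between start sites.

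**Figure D4:**
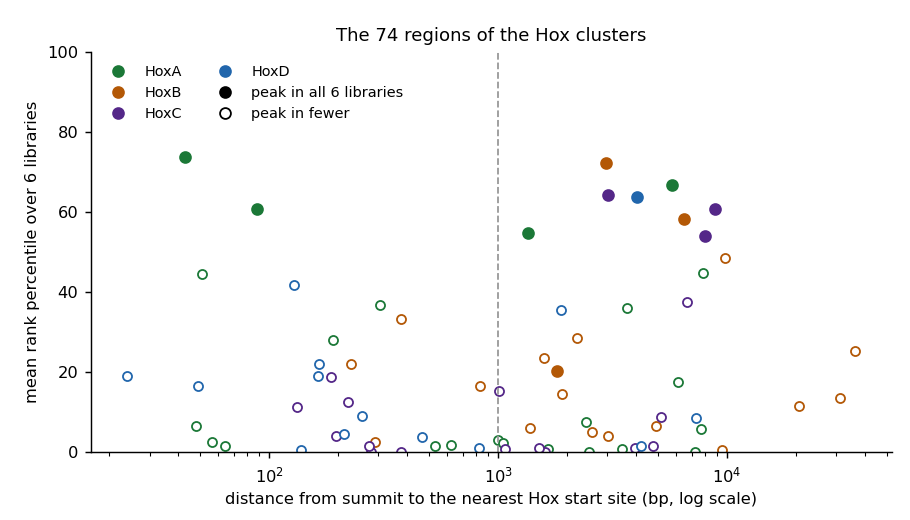
Mean rank percentile over the 6 libraries (y axis) of the 74 regions of the Hox clusters against the distance from summit to the nearest annotated Hox TSS (x axis, bp, log scale), coloured by cluster; filled points are regions with a peak in all 6 libraries. Right of the dashed line at 1 kb lie 9 of the 11 filled points, and 8 of the 10 regions over 50.

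The strongest region of each cluster is shown for its sequence, since a single short pattern recurred under the summits. They are GRCm38 sequences with a loose form of the core that CTCF binds in capitals (C, any 3 bases, AG, any 2 bases, GGC, on either strand); the pattern was chosen after the summit sequences had been read. For HoxA, where the summit is in an annotated UTR, 30 bases are given.
HoxA region in the Hoxa7 UTR, chr6:52221799-52221828, + strand: gagccacactGCCATCTCCTGgaattttct
HoxB region between Hoxb9 and Hoxb8, chr11:96278794-96279093, + strand: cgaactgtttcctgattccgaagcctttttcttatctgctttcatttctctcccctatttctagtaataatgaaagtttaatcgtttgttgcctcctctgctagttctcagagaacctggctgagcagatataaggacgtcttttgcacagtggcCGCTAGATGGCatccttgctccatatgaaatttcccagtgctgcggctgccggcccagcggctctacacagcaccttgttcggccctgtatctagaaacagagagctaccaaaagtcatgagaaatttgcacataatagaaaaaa
HoxC region between Hoxc9 and Hoxc8, chr15:102987452-102987751, + strand: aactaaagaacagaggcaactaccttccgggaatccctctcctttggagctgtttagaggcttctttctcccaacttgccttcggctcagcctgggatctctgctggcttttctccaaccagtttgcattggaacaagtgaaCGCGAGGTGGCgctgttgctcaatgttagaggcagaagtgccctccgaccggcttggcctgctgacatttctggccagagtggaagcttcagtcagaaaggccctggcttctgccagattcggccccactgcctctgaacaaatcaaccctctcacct
HoxD region at the Hoxd3os1 start, chr2:74715803-74716102, + strand: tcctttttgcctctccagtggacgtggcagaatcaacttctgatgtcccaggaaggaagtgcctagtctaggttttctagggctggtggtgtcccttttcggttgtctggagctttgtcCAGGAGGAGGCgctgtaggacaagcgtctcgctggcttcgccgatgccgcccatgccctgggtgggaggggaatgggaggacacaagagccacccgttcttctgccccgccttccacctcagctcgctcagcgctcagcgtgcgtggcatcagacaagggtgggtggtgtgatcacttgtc

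The centre of the match lay 3 bp from the summit in HoxA, 10 bp in HoxB, 3 bp in HoxC and 26 bp in HoxD. A match within 50 bp of the summit was present in 14.6% of all 169881 regions, in 20.8% of the 8131 regions with a mean rank in the range of these 4, and in 15 of the 74 Hox regions (20.3%). The CTCF letters CCNNNAGGG, the pattern chosen first, did not occur in the 300 bp around any of these 4 summits. Both patterns fix the same number of bases, so neither is the stricter. A match describes letters and does not show that CTCF is bound.

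The HoxA region (chr6:52221470-52222142) had its summit in an annotated UTR of Hoxa7, 43 bp from its outermost TSS and on the side of Hoxa9. Its pileup was 23.3 and 27.3 times the background for Input, 49.3 and 44.6 for Myc and 21.5 and 26.6 for PCM1. Both Myc libraries were above the other 4. It is the region behind the top rank of Hoxa7 and Hoxa9.

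The HoxB region (chr11:96278618-96279149) was intergenic, 2961 bp from the nearest Hoxb8 TSS. Its ranks were 78.8 and 69.9 for Input, 89.4 and 83.0 for Myc and 61.0 and 51.0 for PCM1, a mean of 72.2. Since it lies over 2 kb from Hoxb9 and Hoxb8, it enters no gene window, and the strongest open site of HoxB is thus absent from the gene counts. Its level over background was 19.7 and 23.4 for Input, 49.98 and 35.5 for Myc and 18.4 and 16.6 for PCM1.

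The HoxC region (chr15:102987433-102987957) lay in the long Hoxc5 intron, between Hoxc9 and Hoxc8 and 3005 bp from the Hoxc8 TSS. It ranked at 71.0 and 68.8 for Input, 84.4 and 67.6 for Myc and 43.7 and 50.9 for PCM1, both PCM1 libraries being below the other 4. The longest HoxC region (chr15:102999021-102999761, 741 bp), in introns of Hoxc5 and Hoxc6, had a mean rank of 60.9.

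In HoxD the strongest region (chr2:74715771-74716311) lay in introns of Hoxd3 and Hoxd4, 4026 bp from the nearest Hox TSS and 43 bp from the start of Hoxd3os1, an antisense RNA. Its pileup over background was 23.3 and 21.5 for Input, 33.3 and 28.6 for Myc and 12.3 and 13.3 for PCM1. Both Myc libraries stood above and both PCM1 libraries below the Input libraries.

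The longest regions of the other 3 clusters lay at start sites and were less often called. That of HoxA (chr6:52203770-52204807, 1038 bp) covered the TSS of Hoxa5, a gene of lung and neck development, and ranked at 77.5 and 30.5 in Input, 69.3 and 77.7 in Myc and 12.4 in PCM1 replicate 1, with no peak in PCM1 replicate 2. That of HoxB (chr11:96318485-96319792, 1308 bp), at the TSS of Hoxb4, ranked at 40.9 and 32.5 in Input, 70.5 and 55.3 in Myc and 0.764 in PCM1 replicate 1, with none in replicate 2. That of HoxD (chr2:74697594-74698646, 1053 bp), at the TSS of Hoxd9, had peaks in both Input and both Myc libraries, at 15.3 to 48.1, and in neither PCM1 library.

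**Figure D5:**
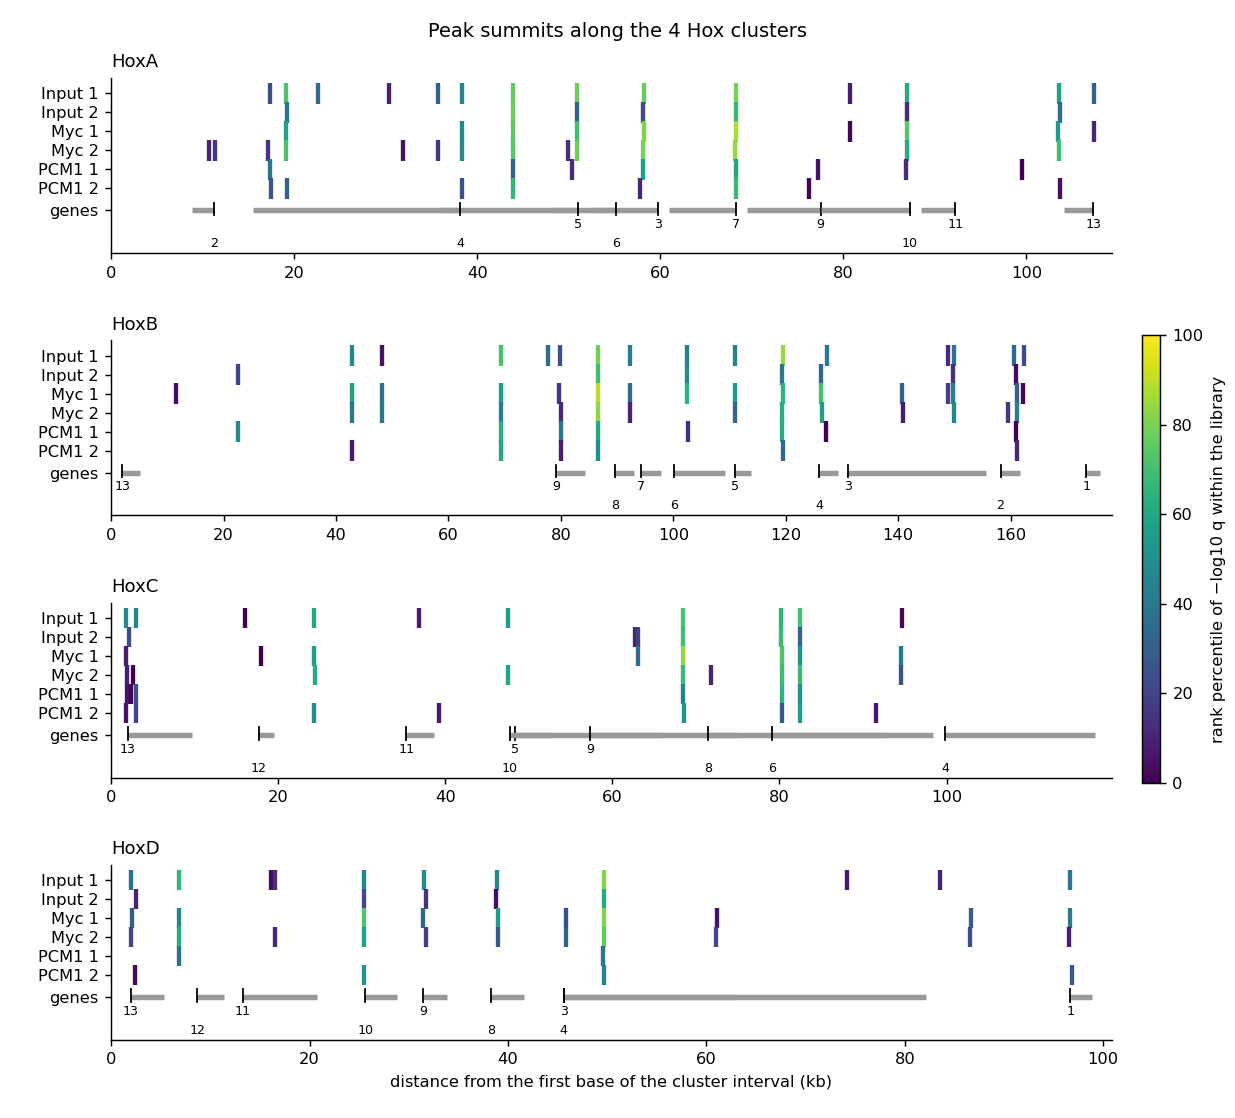
Peak summits nearest to the genes drawn (vertical marks, coloured by rank percentile within the library) in the 6 libraries along each Hox cluster interval, against distance from its first base in chromosome order (x axis, kb). Grey bars are 38 of the 39 annotated genes, with a black tick and the paralog number at the outermost start; the marks present in all 6 rows, such as that between HoxB genes 9 and 8, are mostly away from the ticks.

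The Myc and PCM1 captures are set against each other here. The Myc capture selects the Nkx2-5 lineage, which also holds smooth muscle and endothelial cells beside cardiomyocytes. Myc nuclei came from Nkx2-5 Cre/+ reporter hearts and PCM1 nuclei from WT hearts, so genotype and capture cannot be told apart. Setting 2 libraries against 4 allows no exact permutation p under 0.0667, so groups are set side by side by value. A peak in both Myc libraries and neither PCM1 library was found over 7 Hox genes (17.9%), Hoxa6, Hoxb3, Hoxb5, Hoxb7, Hoxb8, Hoxd8 and Hoxd9, against 1.73% of all genes. The reverse was found for 0 Hox genes, against 0.114% of all genes. At start sites the same pattern was seen for 7 Hox genes (17.9%), Hoxb4, Hoxb5, Hoxc5, Hoxd3, Hoxd4, Hoxd8 and Hoxd9, against 1.84% of all genes, with 0 in reverse, against 0.123%. Over gene windows the genes are not all separate sites: Hoxb7 and Hoxb8 are both counted for the same region (chr11:96284151-96284772).

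These counts move with the number of peaks. With an equal number per library, 5 Hox genes (12.8%, against 1.03% of all genes), Hoxa6, Hoxa13, Hoxb3, Hoxb4 and Hoxb5, had a peak in both Myc and neither PCM1 library, and Hoxb9 and Hoxc13 (5.13%, against 0.465%) the reverse. At start sites, Hoxb4 and Hoxb5 (5.13%, against 1.04% of all genes) went one way and Hoxb9 and Hoxc13 (5.13%, against 0.415%) the other. The number of Hox genes with a peak was then 27 and 23 in Myc, 23 and 23 in Input and 16 and 15 in PCM1 (38.5% to 69.2%, against 72.7% to 73.8% of all genes). Input replicate 2 had an estimated depth of 1.13 times the shallowest library, against 1.08 and 1.00 in PCM1, and the part of depth in these counts was not tested.

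By rank, the best peak stood higher in both Myc than in both PCM1 libraries at 26 of 39 Hox genes (66.7%), against 48.2% of all genes, and lower at 1 (2.56%), against 9.01%. That 1 gene was Hoxc13, with 8.12 and 7.80 in Myc, 23.8 and 22.2 in PCM1 and 49.0 and 24.2 in Input. It was the 1 Hox gene that both Myc libraries ranked below the other 4, and the 1 that both Input libraries ranked above the other 4, by 0.40 at the nearest pair. The 26 genes are not 26 sites, since neighbours such as Hoxa7 and Hoxa9, or Hoxd3 and Hoxd4, share a strongest peak and are each counted.

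Hoxb4, a gene of the hindbrain boundary and of blood stem cells, had the widest gap to the other libraries in Myc and in PCM1. It ranked at 40.9 and 32.5 in Input, 70.5 and 55.3 in Myc and 0.764 in PCM1 replicate 1, with no peak in PCM1 replicate 2, so that Myc lay above and PCM1 below the other libraries. Hoxa6 had the next widest gap below the others in PCM1, with 77.5 and 30.5 in Input, 69.3 and 77.7 in Myc and no peak in PCM1. Its peak is that at the Hoxa5 TSS, which reaches its window.

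Among regions, 4 of 74 (5.41%) were called in both Myc libraries and no other, against 1.84% of all 169881 regions. No Hox region was in both Input or both PCM1 libraries and no other, against 1.08% and 0.254% of all regions. The 3 Myc regions with the highest rank in their weaker library were at a Hoxd3 TSS (chr2:74712009-74712371, ranks 24.7 and 29.3), between Hoxd3 and Hoxd1 in the Haglr RNA (chr2:74752765-74753054, 28.4 and 23.8) and in an intron of Hoxb3 (chr11:96332585-96333291, 32.1 and 7.80). All ranked in the weaker part of the Myc lists, and with an equal number of peaks 1 Myc region and 2 PCM1 regions of this kind were counted. The share over all regions with an equal number of peaks was not computed, so these 2 counts have no background beside them. In PCM1, 7 regions in replicate 1 and 6 in replicate 2 had no peak although all 4 libraries of the other groups had one. In those 4 libraries each level was over the lowest that the PCM1 library called at its genome background. The local background at these regions, which can be higher, was not taken into account, so a peak there need not have been callable. These regions are 9.46% and 8.11% of the Hox regions, against 4.24% and 4.25% of all regions. In Input replicate 2 there were 3 such regions (4.05%, against 2.94%), and in the other 3 libraries 0, against 0.124% in Input replicate 1, 0.839% in Myc replicate 1 and 0.733% in Myc replicate 2.

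Cell type markers also differed between libraries. Fibroblast markers had a mean rank of 49.6 to 55.7 in PCM1, 66.9 to 73.7 in Myc and 55.7 to 71.9 in Input, and 6 to 7, 10 and 7 to 10 of 10 had a TSS peak, in that order, with Lum at no peak in PCM1 or Input replicate 2. Epicardial markers had 38.6 to 41.2 in PCM1, 48.7 to 51.0 in Myc and 44.8 to 64.7 in Input, with Muc16 at no peak in PCM1, Input replicate 2 or Myc replicate 1, at rank 0.702 in Myc replicate 2 and at 35.9 in Input replicate 1. Immune markers had 22.6 to 23.2 in PCM1, 31.4 to 37.2 in Myc and 29.8 to 49.5 in Input, and Adgre1 had no peak in any library, Lyz2 none in Myc or PCM1 and Fcgr1 none in PCM1. The highest genes of the same lists ranked high in all 6 libraries. The fibroblast marker Mfap5 had 81.6 to 91.1, the epicardial marker Tbx18 79.1 to 91.4 and the immune marker Cd68 96.6 to 98.5. Mural markers had 64.9 to 66.3 in PCM1, 68.9 to 77.6 in Myc and 62.7 to 79.8 in Input, and endothelial markers 77.4 to 80.6, 83.7 to 85.9 and 70.9 to 86.1. Cardiomyocyte markers had 85.5 to 88.5 in PCM1, 80.2 to 83.3 in Myc and 88.1 to 93.0 in Input, and neural crest markers 45.7 to 51.0, 47.0 to 48.6 and 47.9 to 52.9. The part of cell makeup in the Hox values was not tested, and in these bulk libraries fewer cells of a type and less open chromatin per cell cannot be told apart.

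The promoters of the lowest gene of each cluster are given for comparison, as the 250 bases before the RefSeq start on GRCm38.p6, 5′ to 3′ on the gene's strand, with the GC box GGGCGG, or its complement, in capitals. RefSeq lists 22 of the 39 Hox genes in the table used, with 24 starts, 2 of them for Hoxd11.
Hoxa2 promoter, chr6:52164832-52165081, - strand: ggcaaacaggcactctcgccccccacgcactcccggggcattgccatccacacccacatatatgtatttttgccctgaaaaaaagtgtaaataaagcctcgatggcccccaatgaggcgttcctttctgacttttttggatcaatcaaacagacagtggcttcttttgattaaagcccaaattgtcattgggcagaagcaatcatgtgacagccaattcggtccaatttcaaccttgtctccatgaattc
Hoxb1 promoter, chr11:96365508-96365757, + strand: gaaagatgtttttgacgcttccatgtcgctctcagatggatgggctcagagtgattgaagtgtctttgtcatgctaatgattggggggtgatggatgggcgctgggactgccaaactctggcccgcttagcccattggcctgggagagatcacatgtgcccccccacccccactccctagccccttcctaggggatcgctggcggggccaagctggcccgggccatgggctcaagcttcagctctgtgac
Hoxc4 promoter, chr15:103034145-103034394, + strand: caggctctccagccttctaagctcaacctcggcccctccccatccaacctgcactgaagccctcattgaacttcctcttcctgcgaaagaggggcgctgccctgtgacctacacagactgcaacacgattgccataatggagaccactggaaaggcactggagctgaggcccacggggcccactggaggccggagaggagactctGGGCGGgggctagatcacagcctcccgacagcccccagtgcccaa
Hoxd11 promoter, chr2:74679308-74679557, + strand: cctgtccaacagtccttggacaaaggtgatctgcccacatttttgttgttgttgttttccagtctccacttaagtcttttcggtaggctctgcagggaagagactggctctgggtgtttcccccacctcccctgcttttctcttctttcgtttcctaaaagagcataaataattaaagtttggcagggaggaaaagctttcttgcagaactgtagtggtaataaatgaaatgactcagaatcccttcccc
Hoxd11 promoter, chr2:74682073-74682322, + strand: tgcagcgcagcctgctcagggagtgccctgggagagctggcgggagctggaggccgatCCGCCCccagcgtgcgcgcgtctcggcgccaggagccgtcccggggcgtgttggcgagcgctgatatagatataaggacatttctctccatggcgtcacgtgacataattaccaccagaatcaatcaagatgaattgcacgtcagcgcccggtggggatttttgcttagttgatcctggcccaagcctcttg

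Hoxb1 and Hoxc4 had no peak within 1 kb of a TSS in any library, Hoxa2 had one in Myc replicate 2 and Hoxd11 had one in 2 libraries. The GC content of these 5 stretches was 44.8% to 62.0%. Over the 24 Hox promoters, taken from 250 bases before to 50 after the start, the median GC content was 57.7% and the ratio of observed to expected CpG 0.626, against 57.0% and 0.588 in the 20150 promoters of protein-coding genes. A CCAAT box (CCAAT, either strand) was in 15 of 24 (62.5%, against 37.8%), a GC box in 10 (41.7%, against 47.8%) and a TATA box (TATAAA) in 4 (16.7%, against 12.1%). The PBX-HOX letters TGATNNAT were in 4 (16.7%, against 7.15%) and the MEIS letters TGACAG in 2 (8.33%, against 18.3%).

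In 300 bp around the summit, the 74 Hox regions were rich in GC (median 60.3%, against 49.3% in all regions) and in CpG (observed over expected 0.711, against 0.223). GC boxes were in 44.6% of them, against 13.5% of all regions, and the CTCF letters CCNNNAGGG in 32.4%, against 19.9%. The PBX-HOX letters were in 10.8%, against 8.89%, the CCAAT box in 29.7%, against 31.8%, the MEIS letters in 14.9%, against 26.4%, and the TATA box in 5.41%, against 13.1%. Hox regions at a start site held the PBX-HOX letters in 6 of 31 and the CCAAT box in 15 of 31, and those between start sites in 2 of 43 and 7 of 43. The loose CTCF core was in 29 of the 74 (39.2%, against 25.2% of all regions).

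Noncoding RNAs of the clusters fell at both ends. Hoxd3os1 had a peak within 1 kb of a start in all 6 libraries, with a mean rank of 63.7. Hottip and Hotair, lincRNAs tied to posterior HoxA and HoxC, had no peak at a start in any library. Nor had the microRNAs Mir10a, Mir10b, Mir196a-1 and Mir196a-2 at their annotated start, and Mir196b and Mir615 had one in 2 libraries each. The annotated microRNA entries are short (Mir10a, chr11:96317165-96317274), so their start need not be where transcription starts.

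Of the nearest protein-coding neighbours, Skap2 (143041 bp away) had a mean rank of 98.1, Calcoco1 (198925 bp) 99.0 and Smug1 (116438 bp) 90.7. Mtx2 (60661 bp) had 88.6, Skap1 (96337 bp) 79.6 and Ttll6 (28865 bp) 78.3. Each had peaks in all 6 libraries, but Skap1 had none at a TSS in any library. Evx1, beyond HoxA, and Evx2, 8753 bp from Hoxd13, are homeobox genes derived from the same ancestral cluster, and they had mean ranks of 8.56 and 8.41. They had a peak in 3 libraries and 2 libraries.

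Other homeobox genes lay to either side of the Hox genes in rank. The 8 ParaHox and Evx genes had a median rank of 6.57 as a mean over libraries, from Gsx2, with no peak, to Gsx1 at 78.1. The 30 dispersed homeobox genes had 37.4, from Emx2 at 2.72 to Lhx3 at 88.3. The Hox genes had 25.2 on the same measure.

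Among genes that regulate Hox clusters, those of the Polycomb and Trithorax groups had the highest median ranks. A TSS peak was found for 19 of 19 Polycomb genes in every library, with a median rank of 94.7, from Pcgf2 at 70.5 to Jarid2 at 99.3. It was found for 11 of 12 Trithorax and MLL genes in every library (median rank 95.5, from Rbbp5 at 68.9 to Kmt2b at 99.4). TALE cofactors had one at 8 or 9 of 9 genes (median 89.3, from Pbx2 at 25.8, with no peak in PCM1 or Input replicate 2, to Pknox1 at 99.8). Retinoic acid pathway genes had one at 10 to 12 of 15 (median 80.9, from Cyp26a1, an enzyme that degrades retinoic acid, at 14.3 to its receptor gene Rara at 96.9).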

How the data were processed

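Peaks of 6 Omni-ATAC-Seq libraries were analysed, 2 biological replicates of each of 3 groups. Per the submitters' processing notes and the study's methods, the authors trimmed reads with fastq-mcf, checked them with FastQC 0.11.5, aligned them to mm10 with Bowtie2 2.3.3.1, marked duplicates with Picard 2.2.1, removed blacklisted regions with bedtools 2.7.1, shifted ends for the transposase and called peaks per library with MACS2 2.1.0.20160309 at q 0.05, without pooling replicates. The deposited columns are a score, a fold over local background (a ratio), the −log10 p-value and the −log10 q-value at the summit. They hold no values for places without a peak, so absence means not called.

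The members, gene lists and tests were chosen with earlier results of these data known. Peaks were joined to GENCODE M21 genes with an overlap of 1 bp. Pileup and background were solved from the deposited fold and p-value, and the pileups came out whole within 0.02 for at least 99.998% of peaks in each library. A level is pileup over genome background. A percentile of −log10 q within a library served as rank. Cluster densities were compared by an exact sign-flip permutation test with Benjamini-Hochberg adjustment over 6 pairs. Named genes were the highest and lowest of each cluster, every gene lacking a peak in a library, and up to 2 per group lying apart from the 4 other libraries. Named regions were the strongest and longest of each cluster and up to 3 per group called in 1 group only. The CTCF core pattern was added after the strongest summits had been read. Motifs were sought on both strands in 300 bp around summits and in RefSeq promoters of GRCm38.p6, and 24 of 24 Hox promoters equalled the genome at their coordinates. The promoter table does not list 17 Hox genes. The alternatives were a q of 0.01, an equal number of peaks, other windows, overlaps and flanks, ranking by fold, and leaving out each library. The scripts were tested on simulated data and used Python 3.11.15, pandas 2.3.3, scipy 1.17.1, matplotlib 3.10.9 and numpy 2.4.6. Values of single genes withheld for evaluation are not reported here.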

Additional observations from a re-analysis of the deposited data

How the results depend on the processing

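Of 489 alternative values, 432 were labelled the same, 51 moved and 6 changed sign. Same meant within a fixed ratio for a count and within the pooled replicate SD for a mean or median. For a motif share it meant within its binomial interval, and for a difference between clusters an adjusted p on the same side of 0.05. With a library left out the sign-flip test cannot reach 0.05, so that label could change only by sign. No paired analysis was possible because no result between groups comes from a test; densities of clusters were compared within each library, and no label ties libraries of different groups to one preparation. With an equal number of peaks, the Hox share with a peak stood 19.1 percentage points below that of all genes (−19.1, against −9.03), and at start sites −39.8 (against −28.9), with 11 genes in Input replicate 1, 12 and 9 in Myc. The median rank became 6.39 in Input replicate 1, 23.0 and 22.5 in Myc and 10.8 as a mean over libraries, −68.3 from all genes. Mean ranks became 6.82 in HoxB, 16.0 in HoxC and 24.3 in anterior genes, and densities 4.73 in HoxC and 4.13 in HoxD per 100 kb. HoxD exceeded its flanks by 2.47, HoxB did by −0.0248, HoxB minus HoxD was 0.176 and HoxC minus HoxD 0.5998. Regions in both Myc libraries alone numbered 1 and in both PCM1 alone 2, and those in Myc and not PCM1 5 and the reverse 3. The matching shares of all regions were not computed. Genes at start sites in Myc and not PCM1 numbered 2 and the reverse 2 (5.13% each, against 1.04% and 0.415% of all genes). Over gene windows the reverse numbered 2 (5.13%, against 0.465%). Within 1 kb of a TSS, the median rank was 2.103 in Input replicate 1, 0 and 9.97 in Myc and 2.01 as a mean, −71.1 from all genes. Mean ranks were then 23.2, 7.46, 6.14 and 15.3 in HoxA to HoxD, and 12.1, 16.1 and 11.4 in anterior, central and posterior genes, with anterior 0.682 and central 4.70 above posterior. With the gene body alone the Hox share was −21.1 points from all genes. Within 200 bp of a TSS, PCM1 replicate 1 had 3 genes. HoxB minus HoxC was 0.106 at q 0.01 and 0.366 by share of base pairs. Leaving out 1 library, it ranged from −0.669 to 0.455, the highest without PCM1 replicate 2, and genes with a TSS peak in all libraries numbered 3 to 5, with 5 without either PCM1 library. With flanks of 100 kb, HoxC exceeded them by 2.96. With 50% reciprocal overlap, 4 regions were in all 6 libraries and 2 in PCM1 and not Myc. In 200 bp around the summit, CTCF letters were in 21.6% and GC boxes in 32.4% of Hox regions. The CTCF core pattern was chosen after seeing the data. The cause of these shifts was not tested. Depth limits what absence means: the libraries with a low estimated depth call no place under 5.12 to 5.86 times background, and Input replicate 1 calls from 2.78.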
